A study of Mus musculus with 3 samples.

Results

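The adventitial fibroblast marker genes described here are Pi16, Dpp4, Dpt, Scara5, Rarres2, Aoc3, Ms4a4d, Efhd1 and Scg3. These 9 genes, of 18193 with a probe set of their own, were read on all 16 of their probe sets, of 45101 on the array, each probe set separately. They were chosen from the ratios between these same arrays, so their values below are a description and carry no test. Mouse cells were released from collagenase-treated fragments of femur and tibia of C57BL/6 mice, depleted of cells carrying CD45, CD31 or Ter119, which mark blood, endothelial and erythroid cells, and sorted by PDGFRa and Sca-1. The 3 sorted populations were PDGFRa+Sca-1+, PDGFRa+Sca-1- and PDGFRa-Sca-1-, each measured on 1 array after amplification of total RNA with a two-cycle labelling assay. The labels call the cells endosteal and give no genotype other than the strain, no treatment, and neither the age nor the number of the mice.

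Adventitial fibroblasts lie in the outer coat of blood vessels and in comparable sheaths of other organs. Single-cell studies of mouse tissues know them by the surface proteins Pi16 and Dpp4 (CD26), and use Dpt, the gene for the matrix protein dermatopontin, for a broader fibroblast class shared by many organs. Such cells also carry Sca-1 and PDGFRa, the proteins used in this sort, and are regarded as progenitor-like. The name refers to such cells through Pi16, Dpp4 and, more broadly, Dpt. Whether the other marker genes mark these cells was not tested here. An array of sorted cells does not show where in the bone the cells lay.

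Signals are MAS5 intensities on a linear scale, brought to a common level per array. A signal below 93.2, the mean of the arrays' medians, was taken as no more than a bound, because no detection calls were used, and this value is called the floor. A gene below it in 1 of 2 populations is given as "at least" so many fold, and a gene below it in both was not compared. A ratio of 2-fold or more was counted as higher or lower. With 1 array per population there is no replicate, and this limits how precise any value can be. In RNA from sorted cells, fewer cells of a type and less RNA per cell cannot be told apart. Different probe sets of the same gene scattered with an SD of 0.65 in the log2 ratio of PDGFRa+Sca-1+ over PDGFRa+Sca-1-, 0.40 for PDGFRa+Sca-1- over PDGFRa-Sca-1- and 0.58 for PDGFRa+Sca-1+ over PDGFRa-Sca-1-, which covers probes and transcripts but not animals. The Pdgfra signal was 12846, 2420 and 586 in PDGFRa+Sca-1+, PDGFRa+Sca-1- and PDGFRa-Sca-1- cells. The 3' over 5' signal ratio of the Actb control probe sets was 4.65 on the PDGFRa+Sca-1+ array, against 2.63 and 2.99 on the PDGFRa+Sca-1- and PDGFRa-Sca-1- arrays. The Gapdh controls differed less between arrays, at 4.73, against 3.54 and 3.93. The end ratio was thus highest in the population in which the marker genes were high, and its part in their ratios was not tested. Genes of bone and cartilage were read beside the endosteal label. Of 8 osteoblast genes listed, 6 had a probe set of their own. All 6 were above the floor in PDGFRa+Sca-1- and in PDGFRa-Sca-1- cells and 5 in PDGFRa+Sca-1+ cells. Of all 18193 genes, 11042, 11026 and 10846 were above it in these populations. The 6 osteoblast genes had summed signals of 17999 in PDGFRa+Sca-1+, 98980 in PDGFRa+Sca-1- and 31246 in PDGFRa-Sca-1- cells. Col1a1 made up most of the first sum, at 14417, and Dmp1 was below the floor in that population. The 8 chondrocyte genes summed to 39643, 180265 and 167467 in PDGFRa+Sca-1+, PDGFRa+Sca-1- and PDGFRa-Sca-1- cells, and the 5 tenocyte genes to 39998, 40936 and 51726. Comp made up most of the first chondrocyte sum, at 25256, against 28927 and 29358. The other 7 chondrocyte genes were at least 2-fold lower in PDGFRa+Sca-1+ than in PDGFRa+Sca-1- cells, where 11.3% of all genes compared were lower.

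All 9 marker genes were at least 2-fold higher in PDGFRa+Sca-1+ than in PDGFRa+Sca-1- cells by their brightest probe set, a direction that their choice fixed. Among all 11855 genes compared, 14.9% were at least 2-fold higher and 11.3% lower. The marker genes' ratios, 4 of them bounds, lay between 10.2-fold and 45.5-fold, and their median on the log2 scale was 5.32, against 0.07 over all genes compared. A ratio of 10-fold or more was reached by 150 genes, 1.27% of those compared, and the 9 marker genes are among them. In the other step, between the Sca-1- populations, they differed among themselves. Dpt, Scara5 and Rarres2 were already higher in PDGFRa+Sca-1- than in PDGFRa-Sca-1- cells, whereas Pi16, Dpp4, Efhd1 and Scg3 were below the floor in both. Aoc3 and Ms4a4d were just above the floor in PDGFRa+Sca-1- cells and below it in PDGFRa-Sca-1- cells, and with the floor at the 33rd percentile Ms4a4d also had a step, of at least 3.32-fold.

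**Figure D1:**
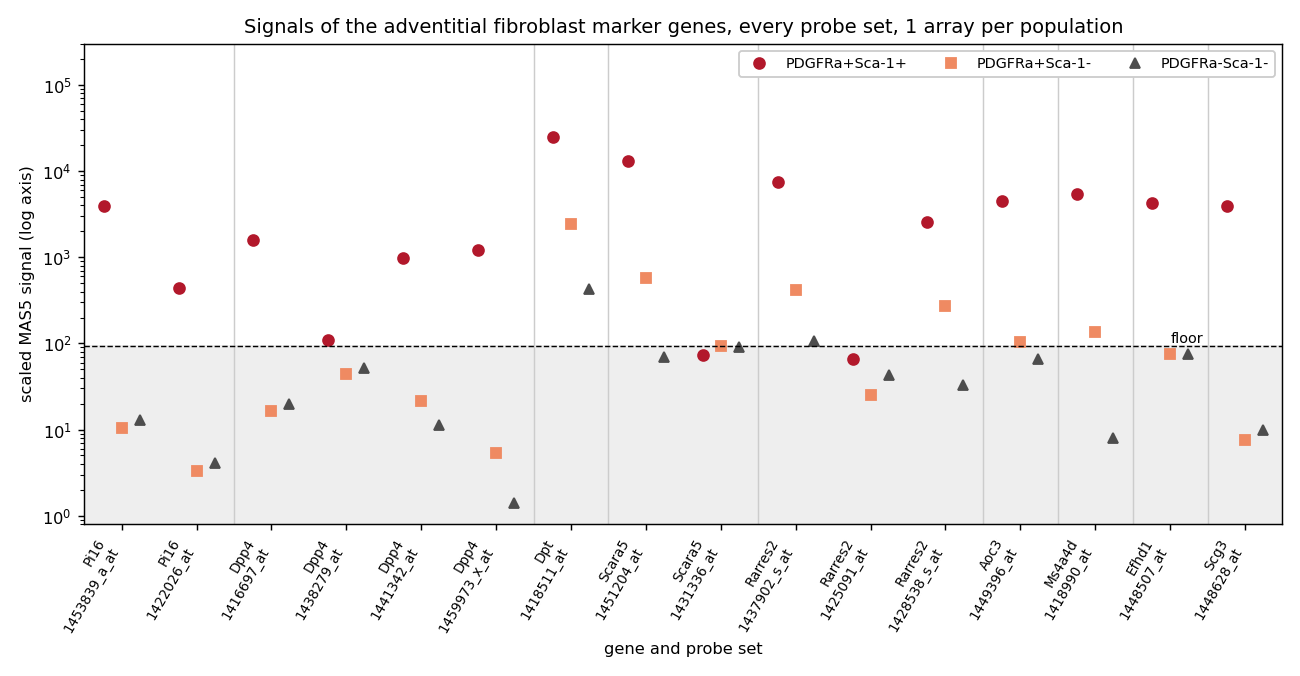
Scaled MAS5 signal on a log axis for each of the 16 probe sets of the 9 genes (gene and probe set on the horizontal axis), with 1 point per population and array. The dashed line is the floor at 93.2, and shaded points below it are bounds only. On 13 of the 16 probe sets the PDGFRa+Sca-1+ point stands at least 2-fold above the floor and both other points, and the other 3 probe sets lie near or below the floor in all populations.

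Pi16 encodes a peptidase inhibitor of the CAP superfamily that is secreted or held at the cell surface. Its probe set 1453839_a_at gave a signal of 3974 in PDGFRa+Sca-1+ cells, against 10.4 in PDGFRa+Sca-1- and 12.8 in PDGFRa-Sca-1- cells. Its other probe set, 1422026_at, gave 445, against 3.30 and 4.10 in the same populations. Pi16 was therefore above the floor only in PDGFRa+Sca-1+ cells by both probe sets, with bounds of at least 42.7-fold and at least 4.78-fold over either other population.

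Dpp4 encodes CD26, a surface peptidase that removes dipeptides from chemokines and hormones. The probe set 1416697_at gave 1607 in PDGFRa+Sca-1+ cells, against 16.2 in PDGFRa+Sca-1- and 19.6 in PDGFRa-Sca-1- cells. The probe sets 1459973_x_at and 1441342_at had signals of 1210 and 977 in PDGFRa+Sca-1+ cells, with no signal above 21.7 elsewhere. The first of these put Dpp4 at least 17.2-fold higher in PDGFRa+Sca-1+ than in PDGFRa+Sca-1- cells, and the third at least 10.5-fold. The last, 1438279_at, was close to the floor at 108, against 44.0 and 51.9, and gave a bound of only 1.16-fold.

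Aoc3 encodes vascular adhesion protein 1, a surface amine oxidase known from smooth muscle, fat and endothelium. Its only probe set gave 4457 in PDGFRa+Sca-1+ cells, against 104 in PDGFRa+Sca-1- and 66.4 in PDGFRa-Sca-1- cells. It was 42.8-fold higher in PDGFRa+Sca-1+ than in PDGFRa+Sca-1- cells, rank 4 among the 10033 genes measured in both populations, although the lower value stood only just above the floor. The tissues known for Aoc3 were read through their own markers. Of 9 pericyte and smooth muscle genes, 7 were above the floor in PDGFRa+Sca-1+ cells, 6 in PDGFRa+Sca-1- and 6 in PDGFRa-Sca-1- cells, with summed signals of 8216, 13750 and 14640. Within that list the smooth muscle myosin gene Myh11 was below the floor in all populations and Acta2 was within 2-fold (2611 against 2814 between the PDGFRa+ populations). By their brightest probe sets the pericyte genes Rgs5 and Abcc9 were 8.92-fold and 4.96-fold higher in PDGFRa+Sca-1+ than in PDGFRa+Sca-1- cells. The other Rgs5 probe sets were near or below the floor there, the brightest at 123. Notch3 was 3.20-fold higher, while Cspg4 was 4.90-fold lower. Cspg4, at 2059, 10083 and 10403, made up most of the summed signal in the Sca-1- populations, so the order of the sums largely follows this gene. The part of these genes in the Aoc3 value was not tested. Of 6 adipocyte genes, Cidec, Lep and Retn were below the floor everywhere and Adipoq was at 58.4 in PDGFRa+Sca-1+, 294 in PDGFRa+Sca-1- and 79.5 in PDGFRa-Sca-1- cells. Fabp4 (128, against 58.1 and 52.3) and Pparg (99.99, against 14.7 and 27.5) were above the floor only in PDGFRa+Sca-1+ cells and close to it. The list summed to 327, 400 and 176, and its part in the Aoc3 value was not tested. Of 8 endothelial genes, 5 including Pecam1 and Cdh5 were below the floor everywhere and the list summed to 1194, 376 and 318. Tek, a receptor of endothelium, made up most of the first sum at 888, against 37.4 and 13.3.

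Scara5 encodes a scavenger receptor that takes up ferritin. The probe set 1451204_at gave 13292 in PDGFRa+Sca-1+ cells, against 575 in PDGFRa+Sca-1- and 70.3 in PDGFRa-Sca-1- cells. The 3 populations thus stood in steps, 23.1-fold between the PDGFRa+ populations and at least 6.17-fold between the Sca-1- ones. The probe set 1431336_at did not show this, with signals of 74.1, 94.1 and 89.9 around the floor.

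Ms4a4d encodes a four-pass membrane protein of the MS4A family, many members of which are known from leukocytes. Its only probe set gave 5458 in PDGFRa+Sca-1+ cells, against 136 in PDGFRa+Sca-1- and 8.0 in PDGFRa-Sca-1- cells. The first value was 40.0-fold above the second, rank 5 among the genes measured in both populations. Leukocyte markers were read beside it. Of 8 such genes, 5 (Ptprc, Cd3e, Cd3g, Cd79a and Itgam) were below the floor in all populations, 3 were above it in each, and the list summed to 921, 760 and 658. Lyz2, a lysozyme gene of myeloid cells, was 2.32-fold higher in PDGFRa+Sca-1+ than in PDGFRa+Sca-1- cells at 353 against 152. The part of these genes in the Ms4a4d value was not tested.

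Among the secreted products, Dpt encodes dermatopontin, an extracellular matrix protein that binds decorin. Its only probe set gave 24864 in PDGFRa+Sca-1+ cells, against 2437 in PDGFRa+Sca-1- and 431 in PDGFRa-Sca-1- cells. Every signal was above the floor, so both steps were measured, 10.2-fold between the PDGFRa+ populations and 5.66-fold between the Sca-1- ones. The highest signal was 59.2% of the brightest on its array, where saturation can compress a ratio.

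Rarres2 encodes chemerin, a secreted precursor that proteases turn into a chemoattractant and that fat and liver also make. The probe set 1437902_s_at gave 7575 in PDGFRa+Sca-1+ cells, against 415 in PDGFRa+Sca-1- and 107 in PDGFRa-Sca-1- cells. These are steps of 18.3-fold and 3.89-fold, and 71.1-fold in all. The probe set 1428538_s_at had the same order at 2542, 275 and 32.9, with steps of 9.25-fold and at least 2.95-fold. The probe set 1425091_at stayed below the floor in all populations, with signals of 66.5, 24.9 and 42.8.

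Scg3 encodes secretogranin 3, a protein of hormone storage granules in neuroendocrine cells. Its only probe set gave 3929 in PDGFRa+Sca-1+ cells, against 7.51 in PDGFRa+Sca-1- and 9.90 in PDGFRa-Sca-1- cells. It was at least 42.2-fold higher in PDGFRa+Sca-1+ cells than in either other population. Of the neuroendocrine genes listed, Chga, Syp and Snap25 were below the floor in all populations. The prohormone processing gene Cpe, from another list, was above it in all, at 12845, 29042 and 25178. Of the 5 glial and neuroendocrine genes, S100b was lower in PDGFRa+Sca-1+ cells, at 1092 against 5800 and 8404, and Sox10 was at 123, against 83.8 and 54.7, by its brightest probe set. By another Sox10 probe set PDGFRa+Sca-1+ cells were lowest instead, at 14.8, against 145 and 94.7. The list summed to 1312, 5951 and 8533.

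Efhd1 encodes an EF-hand calcium-binding protein of mitochondria. Its only probe set gave 4240 in PDGFRa+Sca-1+ cells, against 74.8 in PDGFRa+Sca-1- and 76.3 in PDGFRa-Sca-1- cells. Both Sca-1- values lay below the floor, which makes the difference a bound of at least 45.5-fold. With the floor at the 33rd percentile both values lay above it. Efhd1 was then 56.7-fold higher than in PDGFRa+Sca-1- cells and 55.6-fold higher than in PDGFRa-Sca-1- cells.

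Between the Sca-1- populations, 5 of the 9 marker genes could be compared, and 3 of these were at least 2-fold higher in PDGFRa+Sca-1- cells, where 4.82% of 11675 genes were higher and 5.63% lower. These were Dpt, Scara5 and Rarres2. The bound for Ms4a4d was 1.46-fold and the one for Aoc3 1.12-fold, neither reaching 2-fold. Rarres2 did not reach it either with a higher floor, at the 67th percentile of each array, where its bound was 1.62-fold, or with the mean over its probe sets, where it was 1.52-fold. Of the 7 probe sets compared between the Sca-1- populations, 4 were higher in PDGFRa+Sca-1- cells and 0 lower, against 4.96% and 4.71% of all 24533 compared. Being at least 2-fold higher at both steps was shared by 87 of 11319 genes compared at both, 0.769%. Conversely, 536 genes were above the floor only in PDGFRa+Sca-1+ cells, 4.94% of those above it there, and 30 of them exceeded the floor 10-fold. Pi16, Dpp4, Efhd1 and Scg3 belong to the 536.

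Between PDGFRa+Sca-1+ and PDGFRa-Sca-1- cells all 9 marker genes were at least 2-fold higher, against 14.5% of 11843 genes higher and 12.2% lower, and 7 of the 9 values were bounds. Rarres2 and Dpt, at 71.1-fold and 57.7-fold, ranked 4 and 6 among the 10029 genes measured in both populations. This comparison shares an array with each of the other comparisons and adds no separate measurement.

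**Figure D2:**
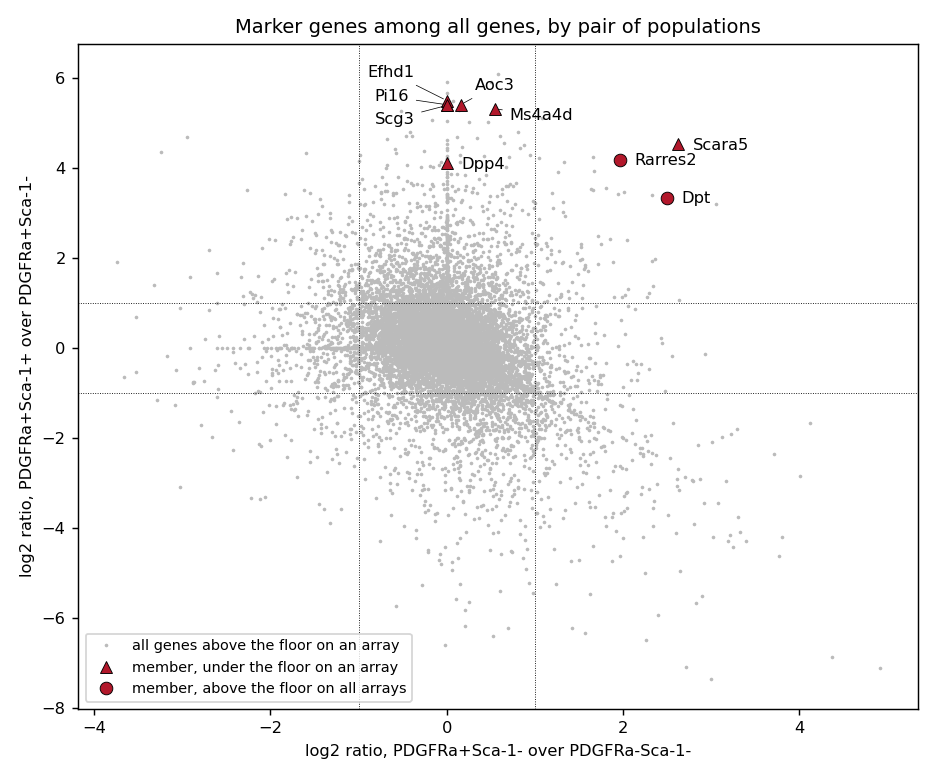
Log2 ratio of PDGFRa+Sca-1- over PDGFRa-Sca-1- (horizontal) against that of PDGFRa+Sca-1+ over PDGFRa+Sca-1- (vertical) for genes above the floor on at least 1 array, with signals below the floor raised to it. Both axes use the PDGFRa+Sca-1- array, so its error tilts the cloud. Dotted lines mark 2-fold, circles are marker genes above the floor on all arrays and triangles those with a bound. Dpt, Scara5 and Rarres2 stand at the upper right, with horizontal values of 2.50, 2.62 and 1.96, and the other 6 stand between 0 and 0.55 on that axis.

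Of the 16 probe sets, 15 could be compared between the PDGFRa+ populations, and 13 were at least 2-fold higher in PDGFRa+Sca-1+ cells and 0 lower, against 13.1% and 12.5% of all 25010 probe sets compared. Against PDGFRa-Sca-1- cells, 13 of the 14 compared were higher in PDGFRa+Sca-1+ cells and 0 lower, where 12.5% of 24884 probe sets were higher and 12.2% lower. The remaining probe sets were 1 each of Dpp4, Scara5 and Rarres2. For Pi16, Dpp4, Scara5 and Rarres2 there was more than 1 probe set, and for the other 5 genes a single probe set carries the value.

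The promoters of 6 of the 9 genes were matched by symbol in the RefSeq promoter table of GRCm38.p6, as windows of 300 bases with 250 before the gene's start. The windows of Scg3, Dpp4 and Pi16, genes seen only in PDGFRa+Sca-1+ cells, and of Dpt, a gene with steps in both comparisons, are printed 5' to 3' on the gene's strand so that the patterns can be set beside the sequence. They lie at chr9:75684007-75684306 (- strand), chr2:62412182-62412481 (- strand), chr17:29318632-29318931 (+ strand) and chr1:164796413-164796712 (+ strand). Capitals mark every match, on either strand, to 7 motifs named for the factors or boxes they are known for, which are spelled out after the sequences.
Scg3: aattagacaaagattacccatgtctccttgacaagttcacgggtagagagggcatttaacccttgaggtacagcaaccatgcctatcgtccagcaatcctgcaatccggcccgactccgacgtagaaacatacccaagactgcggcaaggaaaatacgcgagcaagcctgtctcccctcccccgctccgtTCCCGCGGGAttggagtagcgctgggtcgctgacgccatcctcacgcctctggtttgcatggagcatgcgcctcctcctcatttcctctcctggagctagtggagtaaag
Dpp4: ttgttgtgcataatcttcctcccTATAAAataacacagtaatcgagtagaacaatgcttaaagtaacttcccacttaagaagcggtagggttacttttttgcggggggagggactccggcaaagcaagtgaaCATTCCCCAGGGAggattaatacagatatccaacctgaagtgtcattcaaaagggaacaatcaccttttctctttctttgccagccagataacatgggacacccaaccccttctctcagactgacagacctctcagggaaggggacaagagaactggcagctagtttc
Pi16: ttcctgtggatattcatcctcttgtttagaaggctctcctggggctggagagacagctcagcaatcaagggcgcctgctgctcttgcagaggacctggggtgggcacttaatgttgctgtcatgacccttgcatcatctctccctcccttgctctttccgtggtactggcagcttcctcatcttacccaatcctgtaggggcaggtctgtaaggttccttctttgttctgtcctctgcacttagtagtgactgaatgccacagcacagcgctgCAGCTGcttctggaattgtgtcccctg
Dpt: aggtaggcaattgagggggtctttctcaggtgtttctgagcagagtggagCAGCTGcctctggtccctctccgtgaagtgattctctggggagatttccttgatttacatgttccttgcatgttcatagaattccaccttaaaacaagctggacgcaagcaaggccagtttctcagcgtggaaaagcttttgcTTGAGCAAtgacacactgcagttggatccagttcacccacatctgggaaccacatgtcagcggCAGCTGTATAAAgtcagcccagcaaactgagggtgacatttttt

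The EBF palindrome, TCCC and GGGA with any 2 bases between them, was present in the Scg3 and Dpp4 windows, 2 of the 6, and in 0.904% of all 32851 windows. In Scg3 it began at base 191 of the window, counted from 1, and in Dpp4 at base 136, where it overlaps a TEAD match that began at base 133. The E-box searched was CAGCTG, which was present in the Dpt, Ms4a4d and Pi16 windows and in 16.3% of all windows. The C/EBP letters TTGCNNAA were present in the Dpt, Efhd1 and Ms4a4d windows and in 10.8% of all. The TATA box was searched as TATAAA, which was present in the Dpp4 and Dpt windows and in 13.6% of all. In Dpt these letters began at base 263, after the annotated start, next to an E-box. The GC box was searched as GGGCGG, which was present in the Efhd1 and Ms4a4d windows and in 35.7% of all. The TEAD letters, GGAATG, were present in the Dpp4 and Ms4a4d windows and in 14.7% of all. The AP-1 letters were TGANTCA, which were in 0 of the 6 windows and in 7.81% of all. The windows also differed in CpG content, with 24 CpG in Efhd1 and 18 in Scg3, against 3 to 5 in Pi16, Dpp4, Dpt and Ms4a4d and a median of 7 over all windows. No motif searched was common to the 6 windows, nor to the 4 windows of the genes above the floor only in PDGFRa+Sca-1+ cells. Of the genes with steps only Dpt had a window to search. A match is a run of letters and is not shown to be bound.

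The genes of most similar pattern were sought by the Euclidean distance, over the 3 log2 ratios between arrays, to the median ratios of the 9 genes (5.32, 0.16 and 5.58), among 10837 other genes above the floor in PDGFRa+Sca-1+ cells. The 10 nearest were Ackr1, Ebf2, AW551984, Mndal, Rspo2, Cyp1b1, 1700019D03Rik, Cd248, Tppp3 and Cfb, at distances of 0.14 to 0.79. Ackr1 encodes an atypical chemokine receptor, Ebf2 a transcription factor of the EBF family, Rspo2 a Wnt agonist, Cd248 endosialin and Cfb complement factor B. The Ebf2 signals were 4430, 97.6 and 17.1 in PDGFRa+Sca-1+, PDGFRa+Sca-1- and PDGFRa-Sca-1- cells, and its other 2 probe sets had log2 ratios between the PDGFRa+ populations of 3.49 and 2.11, both bounds. Rspo2 was at 3635, 111 and 30.8 by its brightest probe set, while the other, above the floor only in the Sca-1- populations, gave a log2 bound of −0.71. The likeness rests on 3 arrays, and 9 of the 10 ratios over PDGFRa-Sca-1- cells are bounds. Dpp4, Dpt, Scara5 and Rarres2 themselves lay farther from the median pattern than all of these 10 genes.

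Other genes known from Pi16+ and Dpp4+ fibroblasts were taken from a list of 28, of which 26 had a probe set of their own and 25 could be compared. Like the other lists here, it was chosen with earlier results of these data known. Its counts are therefore a description and no independent support for the marker genes. In PDGFRa+Sca-1+ over PDGFRa+Sca-1- cells 20 of the 25 were higher, 2 lower and the other 3 less than 2-fold apart, against 14.9% higher and 11.3% lower over all genes. Their median was 2.52 on the log2 scale, against 0.07 over all genes compared. The sialomucin gene Cd34 was 68.3-fold higher at 17639 against 258, and the microfibril gene Mfap5 60.4-fold higher at 7977 against 132. Smpd3, a sphingomyelinase gene also known from bone and cartilage, was 11.4-fold lower at 956 against 10944, and Bmp7 4.09-fold lower at 142 against 580. Gfpt2 and Metrnl were within 2-fold, at 10411 against 8044 and at 3526 against 3541. Between the Sca-1- populations 3 of 21 were at least 2-fold higher in PDGFRa+Sca-1- cells and 2 lower, against 4.82% and 5.63% over all genes. The other 16 did not reach 2-fold, Mfap5 among them with only a bound (132 against 62.5).

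A list of 18 genes of Col15a1+ and parenchymal fibroblasts, which lie within tissues, was read beside it. Of these 10 were higher in PDGFRa+Sca-1+ than in PDGFRa+Sca-1- cells, 0 lower and the other 8 less than 2-fold apart, against 14.9% higher and 11.3% lower over all genes. The list's median was 1.92 on the log2 scale, against 0.07 over all genes. The chemokine gene Cxcl12 was 15.4-fold higher by its brightest probe set (21288 against 1385), though another probe set had a log2 ratio of 0.08 and the third was near the floor at 105 against 27.8, which gives only a bound. The basement membrane collagen gene Col4a1 was 14.4-fold higher (13916 against 964). By their brightest probe sets the proteoglycan genes Dcn and Lum and the matrix genes Hspg2 and Smoc2 were within 2-fold. Other probe sets went past it in both directions: Hspg2 was lower at 728 against 1931 and Smoc2 lower at 286 against 737, while a dim Dcn probe set was higher at 357 against 61.0, the last value below the floor. Members of both lists were thus higher in the same population, and genes within 2-fold in the second list included abundant matrix genes of many stromal cells. Whether the lists differ from each other was not tested.

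**Figure D3:**
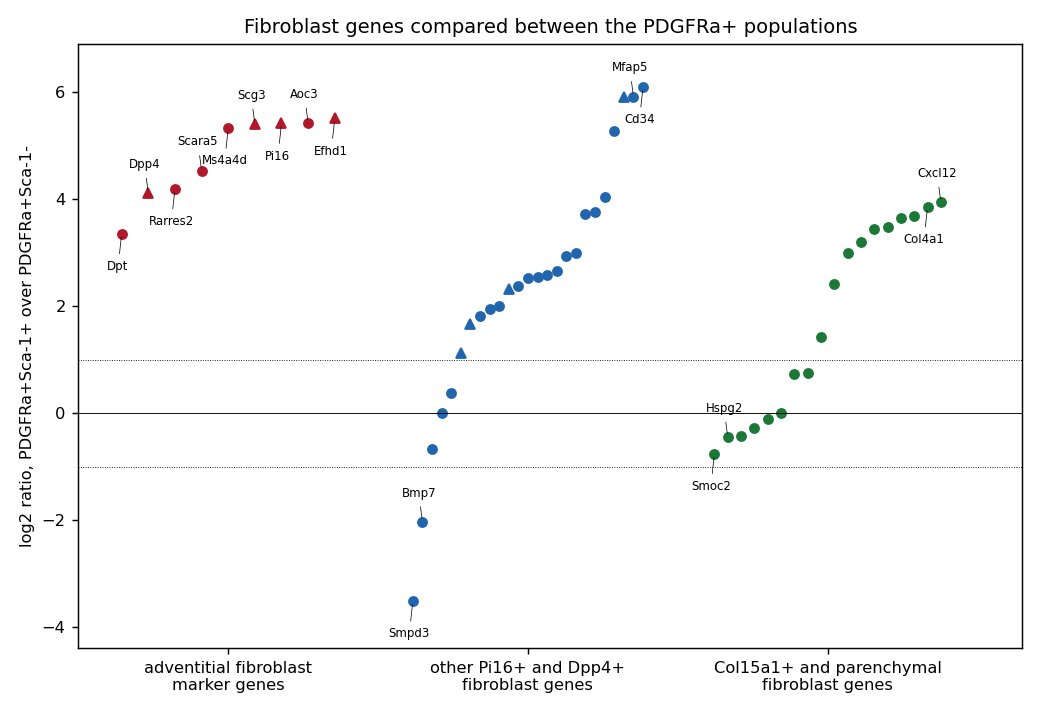
Log2 ratio of PDGFRa+Sca-1+ over PDGFRa+Sca-1- (vertical) for the marker genes, other Pi16+ and Dpp4+ fibroblast genes, and Col15a1+ and parenchymal fibroblast genes (left to right), 1 point per gene compared, sorted within each list. Circles were above the floor in both populations and triangles are bounds, and dotted lines mark 2-fold. The marker genes, chosen from this ratio, span 3.35 to 5.51, the second list −3.52 to 6.09 and the third −0.76 to 3.94.

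Relatives and partners of each marker gene were read from lists made by family. Some were higher in PDGFRa+Sca-1+ than in PDGFRa+Sca-1- cells and others lower or within 2-fold. Over all genes compared, 14.9% were higher and 11.3% lower. The lists are short, and whether any differs from all genes was not tested. Of 8 genes of the CAP superfamily beside Pi16, 5 could be compared between the PDGFRa+ populations. Glipr2 was at least 9.07-fold and Pi15 at least 4.05-fold higher in PDGFRa+Sca-1+ cells, Crispld1 was 12.9-fold lower (1277 against 16420), and Crispld2 was within 2-fold. Glipr1 was near the floor at 97.6 against 50.05, which gives a bound of only 1.05-fold. Of 8 genes of the dipeptidyl peptidase family beside Dpp4, 6 could be compared. Dpp7, a lysosomal peptidase gene, was 3.56-fold higher and Dpp8 2.66-fold lower by its representative probe set, although another Dpp8 probe set had a log2 ratio of 1.54. Fap, the fibroblast activation protein gene and closest relative of Dpp4, had signals of 17222, 19831 and 18086 and so differed little between the populations in which Dpp4 was high or below the floor.

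Of the class A scavenger receptors beside Scara5, Scara3 was 4.67-fold higher in PDGFRa+Sca-1+ than in PDGFRa+Sca-1- cells (16386 against 3508), but at 10315 in PDGFRa-Sca-1- cells it lacked the steps of Scara5. Colec12 was within 2-fold at 2970, 2249 and 2682, and the macrophage receptors Msr1 and Marco were below the floor in all populations. Of 10 genes of ferritin and iron handling, 2 were higher in PDGFRa+Sca-1+ than in PDGFRa+Sca-1- cells, 0 lower and 8 within 2-fold, a share close to the 14.9% higher and 11.3% lower over all genes. The higher ones were Steap3, a ferrireductase gene (891 against 165), and Hfe, a regulator of iron uptake (4.14-fold). The transferrin receptor Tfrc was at 1063 in PDGFRa+Sca-1+ cells, against 1752 and 6574, an order opposite to that of Scara5.

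Among 7 amine and lysyl oxidase genes other than Aoc3, Aoc1 was below the floor in all populations. Loxl1, a lysyl oxidase of elastic fibres, was 16.4-fold higher in PDGFRa+Sca-1+ than in PDGFRa+Sca-1- cells (11010 against 673), and Maob, of the mitochondrial amine oxidases, 3.93-fold higher. Loxl4 was 51.0-fold lower (168 against 8576) and Loxl3 2.06-fold lower, while Lox was within 2-fold by its brightest probe set (8303 against 11424) and lower by another, with a log2 ratio of −1.94 (1263 against 4844). Of 11 MS4A genes beside Ms4a4d, 10 were below the floor in all populations, and Ms4a15 was near it at 200.2, 172 and 190 (signals).

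Of the chemerin receptors, Cmklr1, the signalling receptor, was 4.04-fold higher in PDGFRa+Sca-1+ than in PDGFRa+Sca-1- cells (969 against 240). Gpr1, another chemerin receptor, was at 1221 in PDGFRa+Sca-1+ cells, against 85.0 and 56.7, so at least 13.1-fold higher than in either other population. Ccrl2, which binds chemerin without signalling, was within 2-fold at 127, 214 and 147. Of the 3 receptor genes, 2 were thus at least 2-fold higher in PDGFRa+Sca-1+ than in PDGFRa+Sca-1- cells, where 14.9% of all genes compared were higher. A link to the Rarres2 signal was not tested. Of the granins and prohormone processing genes beside Scg3, 7 of 8 were below the floor in all populations, and Cpe was 2.26-fold lower in PDGFRa+Sca-1+ than in PDGFRa+Sca-1- cells (12845 against 29042). Efhd2, the relative of Efhd1, was 2.42-fold lower (7946 against 19252), and of the mitochondrial calcium uptake genes Micu2 was 2.00-fold higher, at the threshold, and Micu3, Mcu and Smdt1 were within 2-fold.

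**Figure D4:**
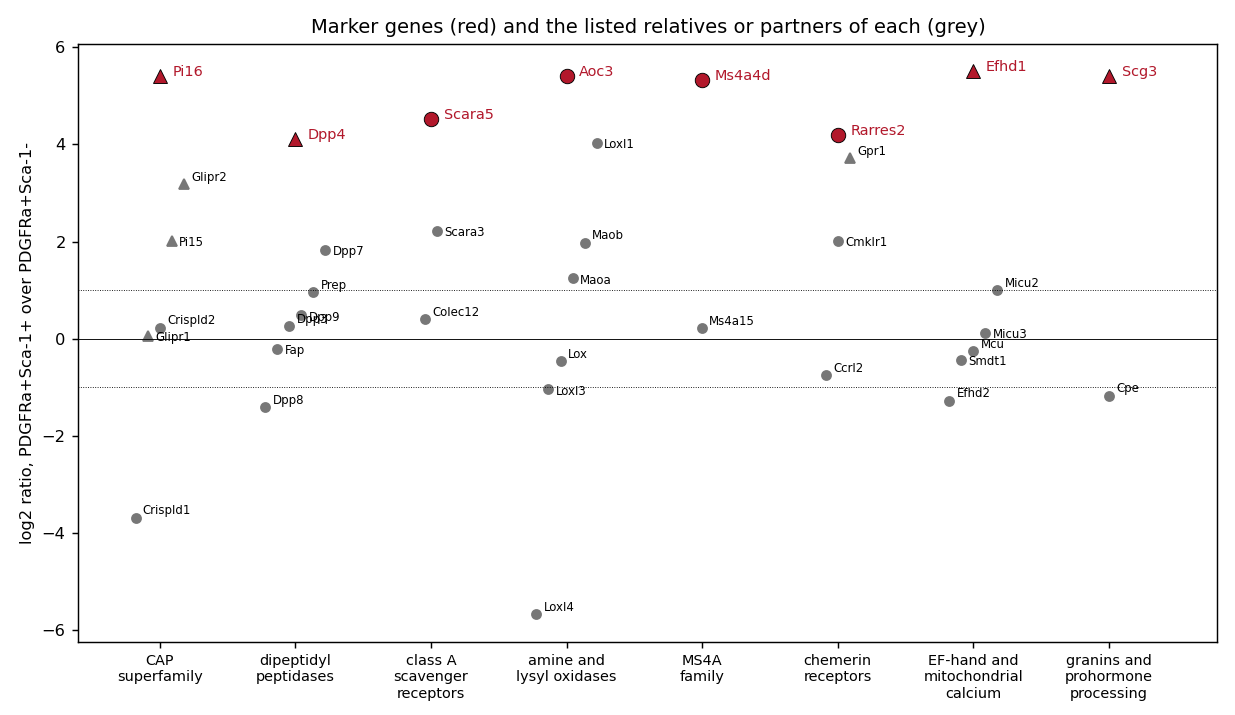
Log2 ratio of PDGFRa+Sca-1+ over PDGFRa+Sca-1- (vertical) for 8 marker genes (red) and the compared genes of the list beside each (grey), by list on the horizontal axis. Triangles are bounds, dotted lines mark 2-fold, and genes below the floor in both populations are not drawn. Gpr1 at 3.71 and Loxl1 at 4.03 come nearest to the marker gene of their list, and Crispld1 at −3.68 and Loxl4 at −5.67 are the lowest.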

How the data were processed

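Gene expression was measured on 3 arrays, 1 per sorted population. Deposited was 1 intensity per probe set, made by the authors with MAS5, per the submitters' processing notes, which name no version. Detection calls were not used. In the deposited values the 2% trimmed mean (from each end) was 500.0 on every array, so they had been scaled beforehand. Here, 64 control probe sets were set aside and arrays were brought to an equal trimmed mean of the other 45037 probe sets. The floor was the mean of the arrays' 50th percentiles. Symbols came from the platform annotation: 34945 probe sets had 1, 932 several and 9160 none, and 34741 of those with 1 matched the RefSeq gene table. Each gene took its probe set of highest mean log2 signal. Members and lists were chosen with earlier results of these data known. Named list genes were the 2 highest, 2 lowest and 2 nearest to no difference between the PDGFRa+ populations (every gene for lists of up to 4). Other genes and probe sets named to describe a marker list were picked after their values were seen. No test was possible with 1 array per population. Counting was tested on simulated data. The alternatives changed the floor, scaling, gene summary, probe sets and threshold. Python 3.11.15, pandas 2.3.3 and scipy 1.17.1 were used.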

Additional observations from a re-analysis of the deposited data

How the results depend on the processing

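All 9 marker genes stayed at least 2-fold higher in PDGFRa+Sca-1+ cells than in either other population with the floor at the 33rd or 67th percentile, quantile normalization, values as deposited, or the mean over probe sets, and past 4-fold with a 4-fold threshold. Without probe sets ending in _x_at or _s_at, 8 of 8 were, because the remaining Rarres2 probe set lay below the floor. The sizes moved with the floor and the gene summary: Pi16 over PDGFRa+Sca-1- cells ran from at least 14.3-fold (mean over probe sets) to at least 96.8-fold (33rd percentile), Dpp4 from at least 6.28-fold to at least 39.1-fold, and Scara5, measured on both arrays, from 4.27-fold (mean over probe sets) to 23.8-fold, while Dpt kept 10.2-fold to 11.0-fold. Between the Sca-1- populations the 3 higher marker genes became 4 with the floor at the 33rd percentile, where Ms4a4d was at least 3.32-fold. They became 2 with the floor at the 67th percentile (Rarres2 at least 1.62-fold), with the mean over probe sets (Rarres2 at least 1.52-fold), with the 4-fold threshold, and without the _x_at and _s_at probe sets. Over all genes, the 4-fold threshold left 547 higher and 457 lower for PDGFRa+Sca-1+ over PDGFRa+Sca-1-, 108 and 85 for PDGFRa+Sca-1- over PDGFRa-Sca-1-, and 569 and 482 for PDGFRa+Sca-1+ over PDGFRa-Sca-1-. The floor at the 67th percentile left 365 higher and 388 lower for PDGFRa+Sca-1- over PDGFRa-Sca-1-. No ratio of a marker gene changed sign in any of these settings. No paired analysis was possible because each population has 1 array. Signals under the floor limit what can be said of Pi16, Dpp4, Scg3 and Efhd1 in both Sca-1- populations. The same holds for Scara5, Aoc3 and Ms4a4d in PDGFRa-Sca-1- cells.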

Other observations

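The genes next to each marker gene in the RefSeq gene order (2 protein-coding genes on each side, 36 in all) were read as well, after the marker genes' values had been seen. Of these, 32 had a probe set of their own and 19 were compared between the PDGFRa+ populations. In PDGFRa+Sca-1+ over PDGFRa+Sca-1- cells 6 of the 19 were at least 2-fold higher, 0 lower and 13 did not reach 2-fold, where 14.9% of all genes were higher and 11.3% lower. The 13 include Hmgcll1, which has only a bound. Of the 6, 3 lie beside Scg3. Tmod2, a gene for an actin-capping tropomodulin, was at 1736 in PDGFRa+Sca-1+ cells, against 54.6 in PDGFRa+Sca-1- and 31.1 in PDGFRa-Sca-1- cells, at least 18.6-fold higher than in either. Its other probe sets were dimmer, the next brightest having a log2 bound of 2.04 between the PDGFRa+ populations. Lysmd2 was at 1576, 255 and 273 in the same order, and Bmp5, a bone morphogenetic protein gene, at 3734, 1408 and 2798 by its brightest probe set, though another gave 234, 253 and 293. On the far side of Bmp5, Hmgcll1 was near the floor at 124, 50.2 and 44.9.

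The remaining 3 were Slc4a10 beside Dpp4 (at least 3.87-fold), Atp6v0e2 beside Rarres2 (3.56-fold) and Mtch1 beside Pi16 (2.24-fold). On the other side of Dpp4, Gcg was below the floor in all populations and Fap was within 2-fold. The neighbours Ms4a6b, Ms4a6d and Ms4a2 of Ms4a4d were below the floor in all populations. No test was made, and neighbouring genes are not independent of each other.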
